A study of Mus musculus with 9 samples.

Results

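The genes described here encode the endosomal sorting machinery of the cell: the ESCRT complexes and their partners, retromer, the sorting nexins and the other proteins named Vps for vacuolar protein sorting. They were taken by name, as gene symbols that start with Chmp, Vps or Snx followed by a digit, together with Hgs, Stam, Stam2, Tsg101, Pdcd6ip, Vta1, Ist1 and Sdcbp. Of 24318 genes listed, 80 matched these names, and 77 were kept because they averaged 1 FPKM or more across all 9 libraries (FPKM is fragments per kilobase of transcript, scaled for the size of the library, and so a level per length). The 3 kept genes nearest the limit were Snx16 at 2.25, Snx32 at 3.87 and Snx11 at 4.20 FPKM. The 3 genes left out were Vps37d at 0.145, Chmp4c at 0.0151 and Snx31 at 0.00133 FPKM.

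ESCRT complexes act in sequence on the endosome membrane. ESCRT-0, -I and -II gather ubiquitin-tagged cargo, ESCRT-III filaments pinch off inward buds, and the ATPase VPS4 takes the filaments apart. The buds become intraluminal vesicles, which are degraded in lysosomes or released as exosomes, one class of extracellular vesicle. Retromer and many sorting nexins do the reverse, pulling receptors out of the endosome for reuse, while the HOPS, CORVET, GARP and EARP complexes tether incoming membranes. Microglia, the phagocytes of the brain, take up extracellular vesicles into this same pathway.

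RNA-seq of polyA-selected RNA from cultured mouse cells gave 9 libraries, 3 in each of 3 groups. Vehicle libraries (named CON in the labels) came from cells given no vesicles, and the other groups from cells exposed to brain-derived extracellular vesicles: CON-BDEV (library names EV Saline) and SE-BDEV (library names EV Pilo), where SE is status epilepticus, or unremitting seizure, after the title of the series. The cells are BV2 in the title and design text, an immortalised mouse microglial line, but N2a, a mouse neuroblastoma line, in the source and cell line labels. Vesicle dose, exposure time, and the age and strain of the brain donors were not given in the sources used here. Nor is it stated that replicates are independent cultures, and p-values therefore reflect only how far these libraries spread, which can be technical.

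Estimated depth ran from 28800000 fragments (CON-BDEV replicate 2) to 33340000 (Vehicle replicate 2), and each library had 10486 to 10561 genes at or above 1 FPKM. Of 20 microglia and macrophage markers, 18 averaged at least 1 FPKM, with a median of 70.9 FPKM over the list, whereas 4 of 20 neuroblastoma and neuronal markers did, with a median of 0.00312 FPKM, and Th, Dbh, Mycn, Chga and Stmn2 were listed at 0 in all 9 libraries. Summed over the microglial list, levels were 3936 to 4087 FPKM in Vehicle, 4115 to 4366 in CON-BDEV and 4105 to 4494 in SE-BDEV, and over the neuronal list 166 to 173, 183 to 195 and 179 to 189 FPKM. Both sums were higher in every vesicle library than in every Vehicle library. Of 8 astrocyte, 8 oligodendrocyte and 8 endothelial and blood markers, 1 (Aldoc), 2 (Cnp and Mbp) and 1 (Flt1) reached 1 FPKM. Each of these 3 sums is therefore mainly the level of those genes. The astrocyte sum was lower in every vesicle library (44.9 to 46.0 FPKM in Vehicle, 37.5 to 41.1 in CON-BDEV and 36.4 to 40.3 in SE-BDEV), as was the oligodendrocyte sum (13.9 to 14.2, 10.8 to 13.5 and 11.9 to 12.5 FPKM). The endothelial and blood sum was 35.2 to 40.3, 35.8 to 44.2 and 42.5 to 47.1 FPKM, with CON-BDEV overlapping Vehicle. The part of these sums in the member results was not tested. The cells are described as a cultured line, so the sums are levels of genes and not counts of cell types. In bulk RNA, fewer cells of a type and less RNA per cell cannot be told apart.

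The sorting machinery was expressed well above the typical gene and was even across libraries. The median of the 77 member means was 26.7 FPKM, against 16.3 FPKM over the 10534 genes of at least 1 FPKM, and 64 members reached 10, 20 reached 50 and 6 reached 100 FPKM. Summed over the 77 members, the level was 2913 to 2959 FPKM in Vehicle, 2969 to 3019 in CON-BDEV and 2941 to 2946 in SE-BDEV. The highest library exceeded the lowest by a median of 1.15 times among members and 1.21 times among all genes. For 60 of 77 members (77.9%) that ratio stayed under 1.2, as it did for 45.8% of all genes. Among genes of at least 20 FPKM, which are measured with less counting error, the medians were closer, 1.14 for members and 1.17 for all. CON-BDEV replicate 3 was the highest of the 9 libraries for 22 members, more than any other library, and Vehicle replicate 2 the lowest for 15.

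**Figure D1:**
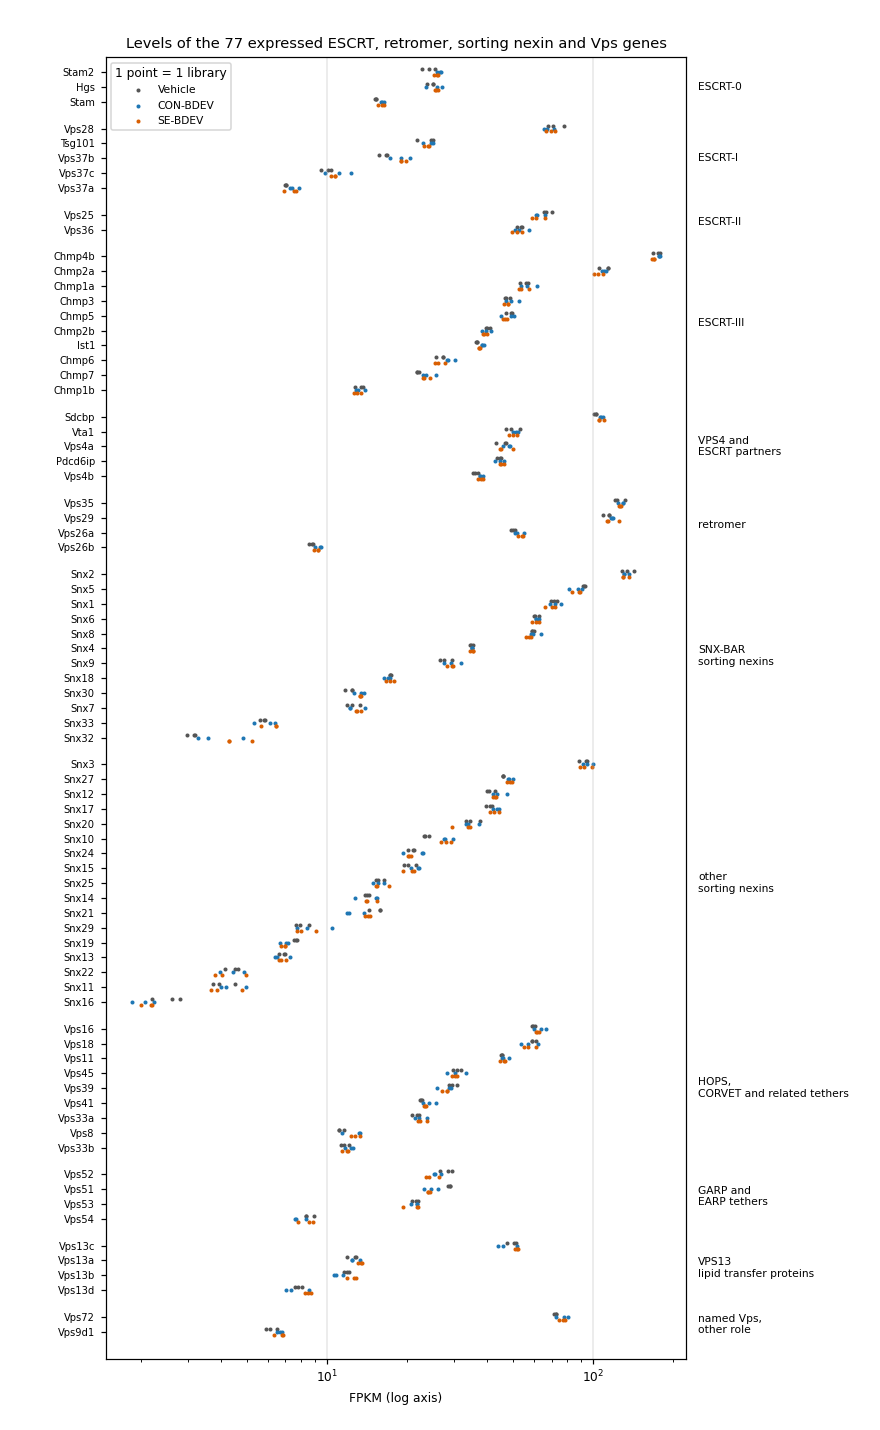
Level of each of the 77 members in every library, in FPKM on a log axis, with 1 point per library coloured by group (3 Vehicle, 3 CON-BDEV, 3 SE-BDEV) and members ordered by role and then by mean. Points of all groups lie close together for nearly every member, with means from 2.25 FPKM for Snx16 to 174 FPKM for Chmp4b, while Snx32 shows the widest separation.

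By role, ESCRT-0 was moderately expressed. Its ubiquitin-binding subunit Hgs was at 25.1, 23.9 and 25.0 FPKM in Vehicle, 27.0, 23.6 and 26.0 in CON-BDEV and 25.7, 25.4 and 26.3 in SE-BDEV. Stam2, one of its partner subunits, averaged 25.5 FPKM and the related Stam 15.8 FPKM. In ESCRT-I, Vps28 averaged 69.9 and Tsg101, which recognises ubiquitin and the budding motifs of viruses, 24.0 FPKM, while the interchangeable Vps37 subunits were lower, at 18.2 (Vps37b), 10.6 (Vps37c) and 7.29 FPKM (Vps37a). The ESCRT-II subunits Vps25 and Vps36 averaged 64.1 and 52.9 FPKM.

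ESCRT-III held the most abundant member. Chmp4b, the main filament-forming subunit, was at 179, 176 and 169 FPKM in Vehicle, 178, 177 and 177 in CON-BDEV and 170, 167 and 170 in SE-BDEV. Its group of 10 ran down to 13.2 FPKM for Chmp1b, with a median of 43.9 FPKM. Among the proteins that work with it, the ATPases Vps4a and Vps4b averaged 46.7 and 37.3 FPKM. Sdcbp (syntenin) and Pdcd6ip (ALIX), which link syndecan cargo to ESCRT-III in exosome formation, averaged 106 and 44.9 FPKM.

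Retromer had the highest median of the 12 role groups, 84.2 FPKM over 4 genes. Its scaffold Vps35 was at 123, 121 and 132 FPKM in Vehicle, 130, 124 and 130 in CON-BDEV and 126, 128 and 126 in SE-BDEV. Vps29 averaged 116 FPKM. The third subunit was supplied unequally by its 2 genes, with Vps26a at 52.1 and Vps26b at 9.09 FPKM, a ratio of 5.44 to 6.11 across the 9 libraries. Snx3 and Snx27, sorting nexins that deliver cargo to retromer, averaged 94.1 and 47.8 FPKM, and Snx17, which works with the related retriever complex, 42.3 FPKM.

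The other paralog pairs also kept a fixed order. Chmp1a (55.8 FPKM) exceeded Chmp1b (13.2), Chmp2a (109) exceeded Chmp2b (39.8), Snx2 (134) exceeded Snx1 (71.0), Snx5 (88.9) exceeded Snx6 (61.2) and Stam2 (25.5) exceeded Stam (15.8) in each of the 9 libraries. The closest pair, Snx17 and Snx27, had a ratio of 0.861 to 0.912, and Vps4a over Vps4b a ratio of 1.18 to 1.32. These are levels per transcript length, and their order holds for these 9 libraries.

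Promoters were examined for what the members share beyond their names. RefSeq promoter windows (build GRCm38.p6, 250 bases before to 50 after each gene start) were available for 53 of the 77 members and 27025 genes. A gene counted if any of its windows matched. The 27025 genes were taken at any level, whereas members averaged at least 1 FPKM, so the shares below compare unlike sets. The E-box core CACGTG, to which TFEB and related factors of lysosome biogenesis bind, was in 7 of 53 members (13.2%) and 8.09% of all genes. Its extended form, the CLEAR palindrome, in which GT precedes and AC follows CACGTG, was in 3 members (5.66%), against 100 of all genes (0.37%). Searches on both strands for TGACNNNGC, the core of the antioxidant response element, found 11 members (20.8%) against 14.0% of genes, and for TGANTCA, the AP-1 site, 5 members (9.43%) against 8.97%. The 3 members with the palindrome are shown because all belong to endosomal complexes, the tether subunits Vps16 and Vps33a and the retromer subunit Vps26a. Snx10 is shown because it changed with both preparations, and 1 of its 3 listed starts has an AP-1 match. Of the 6 members that passed in a comparison with Vehicle, 3 have a window. The others with a window, Snx21 and Vps8, have no match to any motif searched. Each line gives the 250 bases before the start, 5′ to 3′ on the gene's strand, with every match to the motifs searched in capitals. Vps16 is on the plus strand at chr2:130424070-130424319, where a reverse match to TGACNNNGC overlaps the palindrome, Vps26a on the minus strand at chr10:62486806-62487055, Vps33a on the minus strand at chr5:123573016-123573265, and Snx10 on the plus strand at chr6:51523834-51524083.
Vps16: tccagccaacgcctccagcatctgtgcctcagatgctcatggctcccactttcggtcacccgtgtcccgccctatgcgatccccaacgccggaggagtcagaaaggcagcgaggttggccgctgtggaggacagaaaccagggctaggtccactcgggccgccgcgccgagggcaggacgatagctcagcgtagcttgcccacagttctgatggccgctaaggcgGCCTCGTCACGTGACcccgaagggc
Vps26a: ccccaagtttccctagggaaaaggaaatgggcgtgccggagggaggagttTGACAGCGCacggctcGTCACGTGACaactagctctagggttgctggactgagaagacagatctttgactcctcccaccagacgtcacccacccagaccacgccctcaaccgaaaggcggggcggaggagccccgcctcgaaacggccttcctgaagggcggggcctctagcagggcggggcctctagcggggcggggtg
Vps33a: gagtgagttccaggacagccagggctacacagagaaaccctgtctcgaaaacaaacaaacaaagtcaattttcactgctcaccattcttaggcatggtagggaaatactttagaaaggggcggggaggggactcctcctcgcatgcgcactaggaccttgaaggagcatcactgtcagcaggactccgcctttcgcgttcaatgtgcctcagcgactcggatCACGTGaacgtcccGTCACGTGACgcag
Snx10: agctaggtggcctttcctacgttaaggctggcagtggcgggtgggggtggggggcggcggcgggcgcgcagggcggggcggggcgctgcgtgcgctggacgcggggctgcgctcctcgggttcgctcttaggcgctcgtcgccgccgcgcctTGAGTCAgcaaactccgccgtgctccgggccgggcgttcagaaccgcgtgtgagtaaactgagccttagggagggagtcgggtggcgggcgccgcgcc
A match is a run of letters and not a measured binding site. Vps16, at 59.8 ± 0.673 FPKM in Vehicle, 63.5 ± 3.37 in CON-BDEV and 61.8 ± 0.910 in SE-BDEV (mean ± SD, n = 3), did not pass the test in either comparison with Vehicle, and neither did Vps26a or Vps33a.

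The first comparison, CON-BDEV against Vehicle, concerned vesicles named as control. A sorting nexin, Snx10, rose, and the tether subunit Vps51 and the sorting nexin Snx21 fell. These were 3 of 77 members (3.9%), in a comparison where 5.67% of the 10535 genes tested passed (3.81% higher, 1.86% lower). The test was limma on log2(FPKM + 1), 2-sided, with Benjamini-Hochberg adjustment over all genes tested and a threshold of 0.05. Fold changes are on that scale and understate the change of low genes. Across the 77 members the median log2 fold change was 0.04, against 0.01 for all genes, and 58 members moved by less than 0.1. The 95% interval of a member's change reached a median of 0.12 to either side.

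Snx10, a small sorting nexin of endosomes and lysosomes known for its role in osteoclasts and macrophages, was at 23.4, 24.2 and 23.1 FPKM in Vehicle, 27.6, 27.7 and 29.9 in CON-BDEV and 29.3, 26.9 and 28.0 in SE-BDEV. Every vesicle library lay above every Vehicle library. With CON-BDEV the log2 fold change was 0.26 (SE 0.048, limma adjusted p = 0.0199) and the mean was 20.7% higher. Its locus is chr6:51473902-51540669 in mm9, and an estimated 4649 to 6326 fragments stood behind its value in a library.

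Vps51, a subunit that GARP and EARP share, was at 29.1, 28.5 and 29.0 FPKM in Vehicle, 24.5, 26.1 and 23.3 in CON-BDEV and 23.9, 24.4 and 24.0 in SE-BDEV. All 6 vesicle libraries lay below all 3 Vehicle libraries. It fell by 0.22 on the log2 scale with CON-BDEV (SE 0.050, limma adjusted p = 0.0401), a mean 14.6% lower. Vps51 (chr19:6062821-6077187, mm9) overlaps Tm7sf2 on the same strand, and the pair shares 532 exon bases in the GRCm38 annotation, so the authors' counting could split their reads. Tm7sf2 was low, at 2.26, 2.00 and 1.54 FPKM on average in Vehicle, CON-BDEV and SE-BDEV.

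Snx21, a sorting nexin of early endosomes, was at 15.8, 14.4 and 15.9 FPKM in Vehicle, 13.8, 11.9 and 12.1 in CON-BDEV and 14.5, 14.3 and 14.0 in SE-BDEV. The CON-BDEV libraries lay below all others, while SE-BDEV overlapped Vehicle. The change with CON-BDEV was -0.27 (SE 0.067, limma adjusted p = 0.0497), at the edge of the threshold. It overlaps Acot8 on the opposite strand over 246 exon bases (8.58, 8.56 and 7.83 FPKM on average), and no source used here says whether counting used strand.

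These 3 calls rest on every Vehicle library. Without Vehicle replicate 1, 2 or 3, or without CON-BDEV replicate 3, no member passed, and over all genes the number called was 84 to 133 rather than 597. Adjusted p over 15 alternatives ran from 0.0102 to 0.0941 for Snx10, from 0.0172 to 0.154 for Vps51 and from 0.0123 to 0.186 for Snx21, with the direction kept in each.

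**Figure D2:**
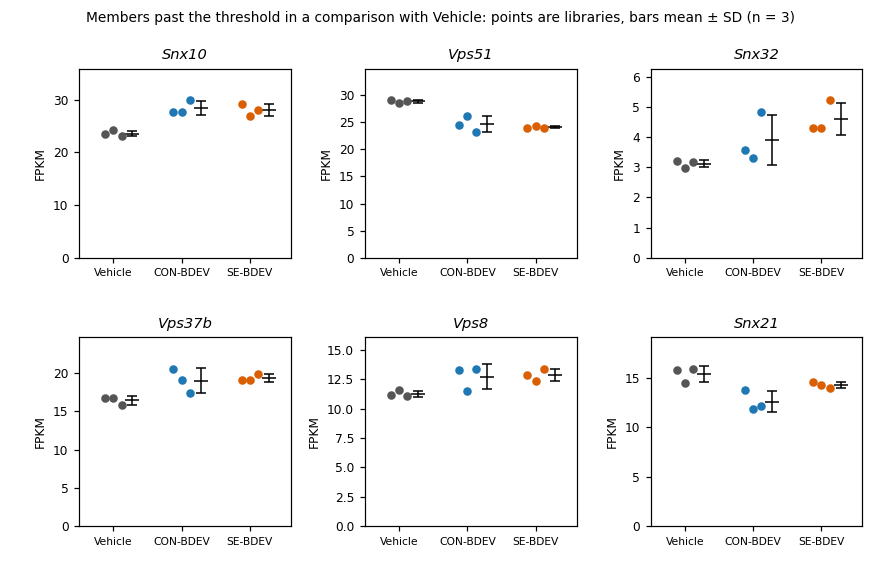
FPKM in every library for the 6 members that passed in a comparison with Vehicle, on linear axes from 0. Points are libraries and the bar beside them is the mean ± SD (n = 3); Snx10 and Vps51 separate both vesicle groups from Vehicle, whereas Snx21 separates only CON-BDEV, and Snx32 has a wide spread within CON-BDEV (3.29 to 4.85 FPKM).

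The second comparison, SE-BDEV against Vehicle, concerned the vesicles named for status epilepticus. Of the 77 members, 4 rose (Snx32, Snx10, Vps37b and Vps8) and 1 fell (Vps51). That is 6.49% of the members, against 11.9% of the 10535 genes tested (6.76% higher, 5.14% lower). The median log2 fold change of the members was 0.02, against -0.00 for all genes, 64 members moved by less than 0.1, and the median 95% interval reached 0.10 to either side. Both comparisons with Vehicle use the same 3 Vehicle libraries, so their values are not independent.

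Snx32, a relative of the membrane-bending sorting nexins Snx5 and Snx6, was low, at 3.20, 2.98 and 3.18 FPKM in Vehicle, 3.57, 3.29 and 4.85 in CON-BDEV and 4.29, 4.29 and 5.22 in SE-BDEV. Both vesicle groups lay above Vehicle, and CON-BDEV overlapped SE-BDEV through its replicate 3. With SE-BDEV the log2 fold change was 0.44 (SE 0.077, limma adjusted p = 0.00805), the mean 47.5% higher. Its values rest on 287 to 511 estimated fragments, a counting error of 5.91% at the fewest. Snx32 (chr19:5495278-5510489, mm9) overlaps 1700020D05Rik on the same strand with 0 shared exon bases in GRCm38, and that transcript averaged 1.69, 2.35 and 2.53 FPKM in Vehicle, CON-BDEV and SE-BDEV, passing with SE-BDEV as well (log2 fold change 0.39, limma adjusted p = 0.0193).

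Vps51 and Snx10 changed with SE-BDEV by amounts near those with CON-BDEV. Vps51 fell by 0.25 (SE 0.037, limma adjusted p = 0.00342), a mean 16.4% lower, and Snx10 rose by 0.24 (SE 0.044, limma adjusted p = 0.00933), a mean 19.0% higher. Vps37b, an ESCRT-I subunit, was at 16.8, 16.8 and 15.8 FPKM in Vehicle, 20.5, 19.0 and 17.4 in CON-BDEV and 19.0, 19.0 and 19.9 in SE-BDEV. Both vesicle groups lay above Vehicle, by 0.22 (SE 0.044, limma adjusted p = 0.0136) with SE-BDEV and by 0.19 with CON-BDEV, where it did not pass (limma adjusted p = 0.11).

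Vps8, a subunit of the early-endosomal tether CORVET that HOPS lacks, was at 11.2, 11.6 and 11.1 FPKM in Vehicle, 13.3, 11.5 and 13.4 in CON-BDEV and 12.8, 12.3 and 13.3 in SE-BDEV. SE-BDEV lay above Vehicle without overlap, while CON-BDEV replicate 2 fell within the Vehicle range. The log2 fold change with SE-BDEV was 0.17 (SE 0.047, limma adjusted p = 0.045). Vps52, a GARP and EARP subunit just outside the threshold, was at 28.5, 26.6 and 29.5 FPKM in Vehicle, 25.2, 27.0 and 25.5 in CON-BDEV and 23.6, 26.4 and 24.3 in SE-BDEV, a change of -0.18 with SE-BDEV (limma adjusted p = 0.0625).

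The SE-BDEV calls differed in how firmly they held. Snx10, Snx32 and Vps51 passed in all 15, 14 and 15 alternatives tried, with adjusted p up to 0.0443, 0.0383 and 0.0228. Vps37b passed in 14 of 15 (0.0114 to 0.0553) and was lost without Vehicle replicate 3. Vps8 passed in 4 of 15 (0.0401 to 0.147) and in none of the 6 fits that left out a library. Without Vehicle replicate 3 the number of members called was 3.

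**Figure D3:**
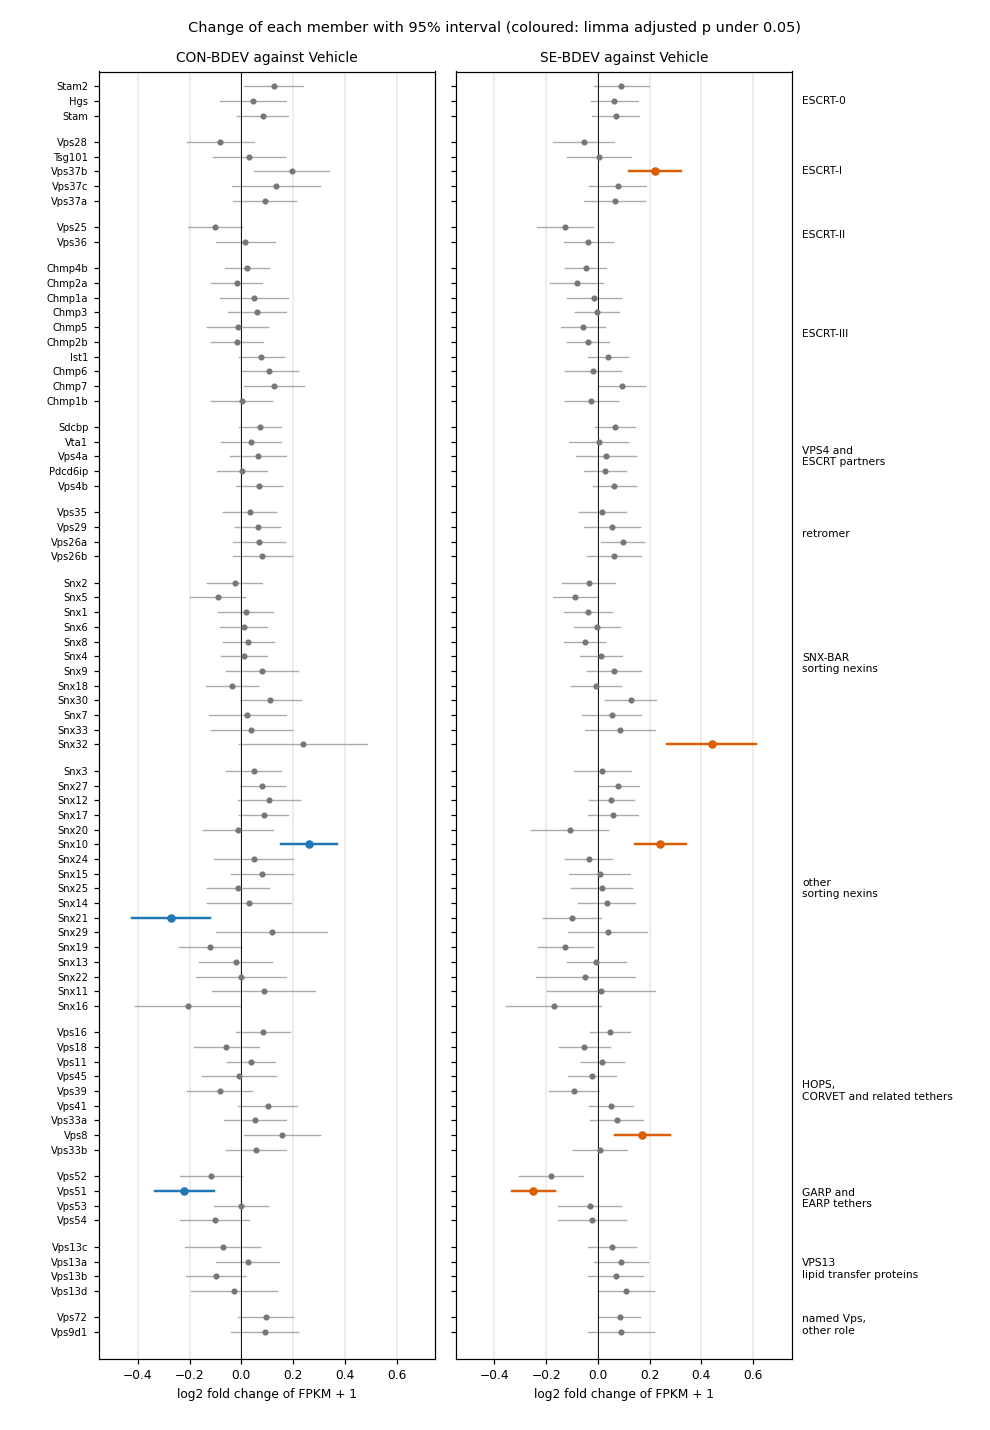
Change of each of the 77 members against Vehicle with CON-BDEV (left) and SE-BDEV (right), as the log2 fold change of FPKM + 1 with its 95% interval, ordered by role. Coloured members passed (limma adjusted p under 0.05): Snx10, Vps51 and Snx21 on the left, and Snx32, Snx10, Vps37b, Vps8 and Vps51 on the right; most other intervals include 0.

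Members whose groups did not overlap were about as common as among all genes. With CON-BDEV, 24 of 77 members (31.2%) had all 3 libraries on one side of all 3 Vehicle libraries, 18 above and 6 below, and 29.3% of all genes tested did (16.6% above, 12.7% below). With SE-BDEV these were 25 members (32.5%), 19 above and 6 below, and 32.8% of all genes (16.5% above, 16.3% below). At an unadjusted p under 0.05 there were 9 members (11.7%) against 23.5% of genes with CON-BDEV, and 14 (18.2%) against 27.4% with SE-BDEV (limma). More members were above 0 than below with CON-BDEV (52 and 25), but this split was 42 and 35 after quantile normalization. With SE-BDEV it was 46 and 31, and 40 and 37 after quantile normalization.

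By role, the GARP and EARP tethers were, on the deposited values, the group in which each member taken by name was below 0 in both comparisons. All 4 (Vps51, Vps52, Vps53 and Vps54) were negative with CON-BDEV (median -0.11) and with SE-BDEV (median -0.11), also after quantile normalization. Of the 4, 1, Vps51, passed in each. After quantile normalization the 2 ESCRT-II genes were below 0 in both comparisons as well. The summed level of the 4 GARP and EARP genes was 84.4 to 89.4 FPKM in Vehicle, 78.3 to 81.4 in CON-BDEV and 76.5 to 81.1 in SE-BDEV. For this sum the vesicle libraries lay below Vehicle. Vps53 was near no change (-0.00 and -0.03), and Vps54, which is found in GARP but not EARP, was at -0.10 and -0.02. Ccdc132, the listed name of the EARP subunit VPS50, was chosen after its values were seen. It averaged 23.7 ± 1.46, 25.7 ± 1.33 and 25.2 ± 0.804 FPKM in Vehicle, CON-BDEV and SE-BDEV (SD, n = 3). Its mean was thus higher with both preparations, opposite in direction to the 4 members. It did not pass (limma adjusted p = 0.281 and 0.317).

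No member of ESCRT-0, ESCRT-II, ESCRT-III, retromer, the VPS4 group or the VPS13 group passed against Vehicle with either preparation. In ESCRT-III, changes ran from -0.02 to 0.13 with CON-BDEV and from -0.08 to 0.09 with SE-BDEV. Chmp7, which also acts at the nuclear envelope, was among the 6 members with the lowest p with CON-BDEV, at 22.0 ± 0.245 FPKM in Vehicle and 24.1 ± 1.42 in CON-BDEV (limma adjusted p = 0.174). Stam2 of ESCRT-0 was at 24.2 ± 1.33 and 26.5 ± 0.490 FPKM (limma adjusted p = 0.175). The 4 retromer genes were all slightly above 0 in both comparisons (medians 0.07 and 0.06), but 3 of 4 after quantile normalization. Vps35 changed by 0.03 and 0.02, and Sdcbp by 0.07 and 0.06.

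The authors' deposited table, made with Cuffdiff, called fewer members. For CON-BDEV over Vehicle it called 497 of 11502 genes (4.32%) and none of the 77 members, with 6 members at a p under 0.05 and a lowest q of 0.0716 for Snx10. For SE-BDEV over Vehicle the authors' deposited table called 617 of 11505 genes (5.36%) and 1 member, Snx32, at a log2 fold change of 0.56 and a q of 0.00509. In the authors' deposited table Vps51 had a q of 0.0628 and Snx10 a q of 0.0829 in that comparison. Its log2 ratios carry no added FPKM, so that for the low Snx32 the value is larger than on the log2(FPKM + 1) scale.

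SE-BDEV against CON-BDEV asked whether the preparations differed in their effect on the sorting machinery. No member passed the test, nor did any of the 10532 genes tested (0%, limma adjusted p). At an unadjusted p under 0.05 there were 4 members (5.19%) and 509 genes (4.83%), and no other tool was run on this comparison. The median member difference was -0.02, 71 of 77 were under 0.1 in size, and the median 95% interval reached 0.11 to either side. For a typical member, differences within that interval could not be detected with these libraries. The interval is not adjusted for the number of genes tested, so larger differences could also fail to pass. Vps13b, at 0.17, had a limma adjusted p = 0.991. Groups did not overlap for 6 members (7.79%), 2 above and 4 below, against 7.94% of all genes (2.74% above, 5.19% below).

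The members called with 1 preparation only were not shown to differ between preparations. Snx32, called with SE-BDEV, differed between preparations by 0.20 (95% interval -0.04 to 0.44, limma adjusted p = 0.999). Vps37b differed by 0.03 (-0.10 to 0.16) and Vps8 by 0.02 (-0.12 to 0.15). Snx21, called with CON-BDEV, was higher with SE-BDEV by 0.17 (0.04 to 0.30, limma adjusted p = 0.991), and its CON-BDEV and SE-BDEV libraries did not overlap. For Snx10 and Vps51, called with both, the differences were -0.02 (-0.12 to 0.09) and -0.03 (-0.13 to 0.07).

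Among role groups, all 4 VPS13 genes lay above 0 between preparations and all 10 ESCRT-III and both ESCRT-II genes below, also after quantile normalization, though no gene passed. Over all 77 members 25 lay above 0 and 52 below, and 33 and 44 after quantile normalization. Most members thus lay below 0, but this did not hold in every role. Of the 12 membrane-bending (SNX-BAR) sorting nexins, 7 lay above 0 and 5 below, and 9 and 3 after quantile normalization. Over all genes 4946 lay above 0 and 5586 below, and 5548 and 4982 after quantile normalization. The VPS13 proteins are large bridges that carry lipids between membranes. Vps13b was at 11.6, 12.1 and 11.9 FPKM in Vehicle, 10.8, 10.7 and 11.5 in CON-BDEV and 12.9, 12.6 and 11.9 in SE-BDEV, so that each SE-BDEV library exceeded each CON-BDEV library. Its difference was 0.17 (SE-BDEV minus CON-BDEV, limma adjusted p = 0.991). Vps13d, Vps13c and Vps13a differed by 0.14, 0.13 and 0.06. Summed over the 4 genes, the level was 78.5 to 84.5 FPKM in Vehicle, 74.3 to 85.6 in CON-BDEV and 85.7 to 86.4 in SE-BDEV.

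All 10 ESCRT-III genes were lower with SE-BDEV than with CON-BDEV in their means, by a median of -0.05. Chmp6, which starts Chmp4 filaments, was at 28.5, 28.3 and 30.2 FPKM in CON-BDEV and 26.1, 25.4 and 27.9 in SE-BDEV (difference -0.13, limma adjusted p = 0.991), with Vehicle between 25.7 and 27.5. Chmp4b differed by -0.07 and Ist1 by -0.04, and these 3 were the ESCRT-III genes whose groups did not overlap. The summed ESCRT-III level was 573 to 583 FPKM in Vehicle, 582 to 594 in CON-BDEV and 560 to 565 in SE-BDEV.

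**Figure D4:**
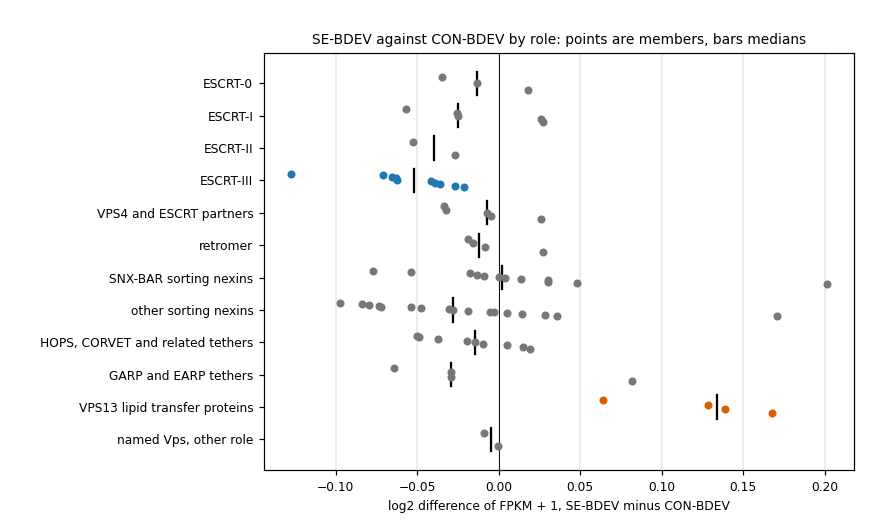
Difference between preparations for each member, SE-BDEV minus CON-BDEV on the log2(FPKM + 1) scale, by role; points are members and black bars medians. The 4 VPS13 genes (orange) lie to the right of 0 and the 10 ESCRT-III genes (blue) to the left, also after quantile normalization; no member passed the test.

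Genes that work with this machinery but carry other names were counted from 4 lists. Of 30 tested ESCRT subunits and regulators, 1 fell with CON-BDEV and 1 rose and 1 fell with SE-BDEV, a share below the 5.67% and 11.9% of all genes that passed. The one that fell was Lgals3, galectin-3, which marks damaged lysosomes, at 572 ± 10.6 FPKM in Vehicle, 507 ± 7.37 in CON-BDEV and 489 ± 22.8 in SE-BDEV (SD, n = 3). Its log2 fold changes were -0.18 and -0.23 (limma adjusted p = 0.0263 and 0.00933). Nedd4l, a ubiquitin ligase, rose with SE-BDEV by 0.20 (limma adjusted p = 0.0441).

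Of 15 tested genes of retromer cargo and its regulators, 1 rose with CON-BDEV and 3 with SE-BDEV and none fell, where 3.81% and 6.76% of all genes rose. M6pr, a mannose 6-phosphate receptor that retromer returns to the Golgi, was at 133 ± 3.19 FPKM in Vehicle, 150 ± 2.78 in CON-BDEV and 151 ± 5.05 in SE-BDEV (SD, n = 3), a rise of 0.17 and 0.18 (limma adjusted p = 0.0357 and 0.016). Tfrc, the transferrin receptor, was at 185 ± 17.9, 244 ± 41.1 and 246 ± 23.8 FPKM and rose by 0.41 with SE-BDEV (limma adjusted p = 0.0132), while with CON-BDEV its change of 0.39 did not pass (limma adjusted p = 0.077). Sorl1, a sorting receptor, rose by 0.25 with SE-BDEV (limma adjusted p = 0.0224). The list medians were 0.05 and 0.06, against 0.01 and -0.00 over all genes.

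Of 34 endosomal phosphoinositide enzymes and tether partners, 1 fell with CON-BDEV, and 2 rose and 1 fell with SE-BDEV, again a share below the 5.67% and 11.9% of all genes. Zfyve16, an endosomal phosphoinositide-binding protein, fell with both, from 8.68 ± 0.361 FPKM to 7.10 ± 0.242 and 7.17 ± 0.182 (SD, n = 3, limma adjusted p = 0.0336 and 0.0162). Uvrag, a partner of the class III phosphoinositide kinase, and Plekhm1, which links HOPS to lysosomes, rose with SE-BDEV by 0.24 and 0.21 (limma adjusted p = 0.0466 and 0.0136). Of 19 genes of the WASH and Commander complexes, which act beside retromer and retriever, none passed with CON-BDEV, where Fam21, the most abundant, was at 86.0 ± 4.17 and 86.5 ± 4.34 FPKM (SD, n = 3). With SE-BDEV 1 of 19 fell, the Commander subunit Commd5, by 0.29 (limma adjusted p = 0.0289), where 5.14% of all genes fell. No gene of the 4 lists passed between preparations.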

How the data were processed

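The 9 libraries were polyA RNA, prepared with a directional kit per the labels' protocols and grouped by their titles. TopHat2 and Cuffdiff with build mm9 are named in the submitters' processing notes, with versions, annotation and use of strand not given in the sources used here. The authors deposited FPKM values of 24318 genes in separate tables, 1 for each vesicle group and its Vehicle libraries. The authors' deposited Cuffdiff tables give, per the file headers, the log2 fold change over Vehicle, a test score, a p-value and a q-value. The shared Vehicle libraries differ between tables by 1 factor each (1.00042, 1.00012 and 1.00078), by whose geometric mean the SE-BDEV libraries were divided. Listed starts count from 0 and were printed with 1 added. Genes with a failed Cuffdiff estimate were left out of that comparison, and no member was among them.

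The FPKM values were transformed to log2(FPKM + 1) and tested with R 4.3.3 and limma 3.58.1 (eBayes with trend) over genes averaging 1 FPKM or more, each vesicle group within its own table and SE-BDEV against CON-BDEV in 1 fit of 9 libraries. An exact permutation test of 3 against 3 cannot go below p = 0.1. The fits were tested on simulated data. Depth was estimated from values under 0.05 FPKM in long genes, and fragments per gene from the longest annotated transcript, so they are approximate and intervals cover these libraries only. Named members are those past the threshold (up to 20 a comparison, filled to 6 by the lowest p), the most abundant of each role, the 3 either side of the level limit, set paralog pairs, and up to 4 called genes of each pathway list. The members and lists were chosen with earlier results of these data known. Leaving out Vehicle libraries from the comparison of preparations, and quantile normalization of role groups, were added after the data were seen.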

Additional observations from a re-analysis of the deposited data

How the results depend on the processing

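The number of members called with CON-BDEV against Vehicle (3) was 0 with no filter on low values, 1 without the mean-variance trend and 0 with the first number of the library name as a block, and 0 to 3 when each library was left out. Over all genes it was 112, 416 and 275 in those settings against 597. The labels do not say what the first number of the library name marks. Most Vehicle libraries carry 1 there and most libraries of each vesicle group carry 2. The number is therefore partly confounded with vesicle treatment. With the replicate number as a block, 0 members and 364 genes were called. Pairing by that number was not seen: deviations of same-numbered libraries correlated at -0.26 to 0.19, and 3 of 9 libraries correlated best with their own number. For SE-BDEV against Vehicle (5) leaving out a library gave 3 to 5 members. For SE-BDEV against CON-BDEV it was 0 in every setting run. Quantile normalization moved the median member change from 0.0365 to 0.0149 with CON-BDEV, from 0.0165 to 0.00441 with SE-BDEV and from -0.0176 to -0.00619 between preparations. Leaving out a library gave medians of 0.0162 to 0.0319 with SE-BDEV and -0.0252 to -0.00595 between preparations. The causes were not tested. Of 797 refits of the 50 results on single members, 36 lost a call, 2 gained one and none reversed a called value, while 29 changed the sign of a value that did not pass. Depth limits the low members most: Snx16 rests on as few as 134 estimated fragments (counting error 8.63%), against a median of 2655 over the members' lowest libraries.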
